A study of Mus musculus with 2 samples.

Results

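Fibroblast growth factor (FGF) signalling was examined through 38 genes, out of 12393 genes measured in mouse cochleae at embryonic day 18.5 (E18.5). The genes were taken by their symbols, namely every numbered *Fgf* and *Fgfr* gene, *Fgfrl1*, *Fgfbp1*, *Frs2*, *Frs3*, the Sprouty and Spred inhibitors, *Dusp6*, *Il17rd* and the Pea3 factors *Etv1*, *Etv4* and *Etv5*. The rule itself uses symbols and no measured value. The 38 genes are 15 canonical ligands, 3 endocrine ligands, 4 intracellular FGFs, 4 receptor tyrosine kinases, 1 receptor without a kinase, 1 ligand carrier, 1 adaptor, 7 feedback inhibitors and 2 Pea3 transcription factors. *Frs2* is named by no probe set of the annotation used. *Etv1* is named only by 2 probe sets that also carry another symbol, so no level is given for it.

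The study set cochleae of *Igf1*-/- null embryos against those of *Igf1*+/+ embryos, from matings of heterozygotes of the C57BL/6J background, to find genes that depend on insulin-like growth factor I. The dissected tissue held the otic capsule, the cartilage and bone around the cochlea, and no vestibular tissue. There was 1 array titled +/+ and 1 titled −/−. The labels give 8 cochleae for each array, while the methods describe 3 pools of 2 embryos per genotype, so a deposited column may stand for more than a single pool. The titles are contradicted by the source names and descriptions, which give the null genotype to the titled +/+ array and the wild type to the titled −/− array. Both arrays are therefore called by their titles, and differences are given as titled −/− less titled +/+. If the source names hold, each sign below turns. *Igf1* itself was at 11.42 on the titled +/+ array and 11.03 on the titled −/− array by its strongest probe set. All 3 of its probe sets were lower on the titled −/− array, with differences of −0.42, −0.75 and −0.58. The labels alone were used for the arrays' names, and these values were not used to settle the genotype. The labels do not say what the disrupted allele still transcribes.

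FGFs are secreted proteins that bind receptor tyrosine kinases together with heparan sulphate, and a smaller branch of the family acts inside the cell. The bound receptor engages FRS adaptors and the RAS-ERK cascade, which induces Pea3 factors and a set of inhibitors, the Sproutys, Spreds, SEF and DUSP6, that restrain the same cascade. In the ear, *Fgf3* and *Fgf10* act in otic induction, *Fgf20* in the prosensory epithelium and *Fgf9* in signals from the epithelium to the mesenchyme. *Fgf8* of inner hair cells acts through *Fgfr3* on the neighbouring pillar cells.

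Levels are on the log2 scale as deposited, from 0 to 13.67, and carry no error because there was no replicate. The only repeat reading is that of several probe sets for the same gene. The differences of such probe sets had a pooled SD of 1.16 at mean levels below 5.06, of 0.27 from there to 7.68 and of 0.10 above. These 3 ranges are called low, middle and high. Of the 38 FGF genes, 17 were in the low range, 12 in the middle range and 9 in the high range. A level near 0 cannot be told from background, and levels of different genes are not compared, since their probe sets differ. As a check of the tissue, the cochlear genes *Otor*, *Tecta* and *Coch* were above 9 on both arrays, as was the cartilage gene *Col2a1*. The hair cell genes *Strc* and *Slc26a5*, which encode stereocilin and prestin, were listed at 0 on the titled −/− array. On the titled +/+ array they were at 0.58 and 2.83, and both are in the low range. The other 12 hair cell markers measured were above 0 on both arrays, with 5 higher and 7 lower on the titled −/− array. The arrays also differed in genes of other tissues. Of 11 lung epithelium markers all 11 were lower on the titled −/− array, with a median difference of −1.42, and of 16 skeletal muscle markers 15 were higher, with a median of 0.77. Of 5 anterior pituitary markers above 0 on both arrays 3 were higher and 2 lower. The growth hormone gene *Gh*, *Tshb* and *Pomc* differed by 1.87, 1.83 and 1.46. *Prl* and *Lhb*, both in the low range, differed by −1.71 and −0.77. The summed linear level of the list, to which *Gh* gave the most, was 3.24 times as high on the titled −/− array. The share of lung, muscle, pituitary or other tissue in each FGF value was not tested, and in such bulk tissue fewer cells of a type cannot be told apart from less RNA per cell.

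Promoter sequences of 4 members are shown to let the control regions be read beside the levels that follow. *Dusp6*, *Spry1* and *Spry2* are shown because these feedback genes were all higher on the titled −/− array at middle or high levels. *Fgf13* is shown because, of the 29 members with a promoter searched, only it matched a loose form of the MEF2 motif. The study's own promoter search had named a possible MEF2 site. That search took longer stretches of a few selected genes, with other software, and the genes it lists do not include *Fgf13*. The searches are therefore not alike. Each sequence shown runs 5′ to 3′ over 300 bases, 250 before and 50 after the start site, from RefSeq (GRCm38.p6). Capitals mark CGGAA, the core bound by ETS factors such as the Pea3 group, on either strand. In *Fgf13* they mark the loose MEF2 form, CTA and TAG with any 4 bases between them. This form does not limit the 4 bases to A and T. Both strands were searched.
*Dusp6*, chr10:99262981-99263280, plus strand: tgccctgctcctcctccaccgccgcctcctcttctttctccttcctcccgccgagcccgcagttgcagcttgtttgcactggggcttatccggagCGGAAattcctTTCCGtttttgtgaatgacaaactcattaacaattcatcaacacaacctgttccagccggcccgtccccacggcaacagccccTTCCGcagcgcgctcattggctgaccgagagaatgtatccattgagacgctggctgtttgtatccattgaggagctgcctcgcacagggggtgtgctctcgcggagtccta
*Spry1*, chr3:37639697-37639996, plus strand: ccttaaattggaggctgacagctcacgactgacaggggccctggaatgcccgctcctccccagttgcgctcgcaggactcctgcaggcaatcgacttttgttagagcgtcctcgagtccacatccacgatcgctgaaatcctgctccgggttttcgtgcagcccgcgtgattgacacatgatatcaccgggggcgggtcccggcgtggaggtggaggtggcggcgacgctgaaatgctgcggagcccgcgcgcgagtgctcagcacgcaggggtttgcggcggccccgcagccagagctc
*Spry2*, chr14:105896770-105897069, minus strand: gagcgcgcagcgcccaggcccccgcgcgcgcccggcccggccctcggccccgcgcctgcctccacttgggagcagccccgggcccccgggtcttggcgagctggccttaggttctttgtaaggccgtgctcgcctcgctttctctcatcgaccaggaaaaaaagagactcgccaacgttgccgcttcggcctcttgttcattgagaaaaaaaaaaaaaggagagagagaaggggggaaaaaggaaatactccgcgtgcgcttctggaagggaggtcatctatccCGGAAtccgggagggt
*Fgf13*, chrX:59585523-59585822, minus strand: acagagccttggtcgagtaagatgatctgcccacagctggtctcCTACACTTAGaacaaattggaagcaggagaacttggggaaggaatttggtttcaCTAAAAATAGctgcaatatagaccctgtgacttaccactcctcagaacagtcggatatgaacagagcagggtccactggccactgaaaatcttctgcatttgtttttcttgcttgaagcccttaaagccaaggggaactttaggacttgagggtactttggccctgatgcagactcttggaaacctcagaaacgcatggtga

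In this window *Dusp6* held the ETS core at 3 places, starting at −155, −144 and −61 from the start site, *Spry2* held it once, at 35, and *Spry1* did not hold these letters. The 2 matches of *Fgf13* to the loose MEF2 form began at −206 and −152 of its most upstream start. Their 4 middle bases were CACT and AAAA, and the other 3 starts of *Fgf13* had no match. Of 37 promoters matched to 29 of the 38 genes, 13 held the ETS core, a share of 35.1% beside 29.9% of all 32851 promoters of this length. The members on chromosome 18, *Fgf1* and *Spry4*, were left out of the search. *Fgf8*, *Fgf15*, *Fgf16*, *Fgf17*, *Fgf20*, *Fgfr1* and *Etv4* also had no promoter among the 37. *Etv4*, *Spry4*, *Fgf16* and *Fgf17*, which differed by more than 1 log2 unit, were thus not searched. The longer ETS site CCGGAAGT, which contains the core, was found in 1 of the 37, that of *Fgfrl1*, and in 3.89% of all. The loose MEF2 form was in 1 of the 37 and in 3.69% of all. The cyclic AMP response element TGACGTCA was in 0 of the 37 and in 1.79% of all, and the TATA box TATAAA in 4 and in 13.6%. These shares describe letters only, and the 37 windows are few. The core was in *Dusp6*, *Spry2*, *Fgf12*, *Fgf13* and *Fgf23*, higher on the titled −/− array by their strongest probe sets. It was also in *Il17rd*, *Spred1*, *Spred2*, *Fgfr4* and *Fgfrl1*, lower there, and in *Fgf5*, listed at 0 on both arrays. The feedback genes shown were picked by their direction, and a link of the core to direction was not tested.

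Of the 5 receptor genes 4 were read in the high range, and *Fgfr4* in the middle range. *Fgfr1*, the main receptor of the early sensory epithelium, was at 9.81 on the titled +/+ array and 9.88 on the titled −/− array, a log2 difference of 0.049, and its second probe set differed by 0.0079. *Fgfr2*, which binds ligands from the mesenchyme in many epithelia, was at 9.79 and 9.61, a difference of −0.20, with its second probe set, at 8.08 and 8.09, at −0.018. Of the 1000 probe sets nearest in level, 14.1% differed at least as much as the stronger *Fgfr2* probe set. *Fgfr3*, expressed in pillar cells, other supporting cells and cartilage, was at 9.54 and 9.67, a difference of 0.11, a size reached by 38.3% of probe sets of similar level. Its weaker probe set, at 6.13 and 6.05, differed by −0.099 in the other direction. *Fgfrl1*, a receptor that lacks the kinase, was at 8.68 and 8.70, a difference of −0.0023 after centring. *Fgfr4*, which is prominent in muscle progenitors, was at 7.46 and 7.34, a difference of −0.14. Of its other 4 probe sets, those above 0 differed by between −0.58 and 0.24 and 1 was listed at 0 on both arrays. The 4 kinases lay between −0.20 and 0.11, with 2 higher and 2 lower on the titled −/− array.

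**Figure D1:**
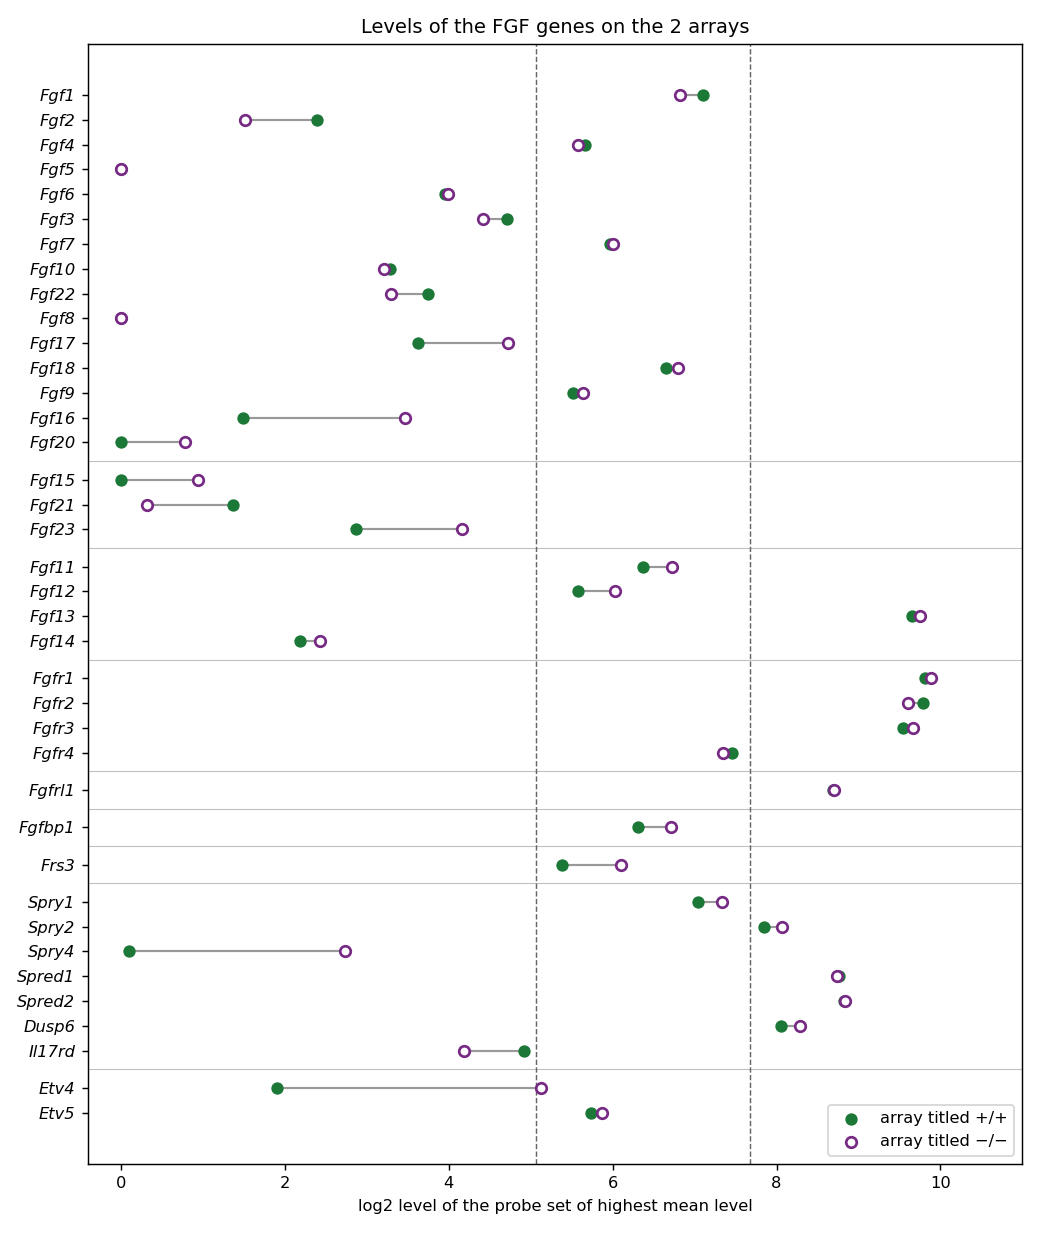
Log2 level (x axis) of the 38 FGF genes (y axis, grouped by role) on the titled +/+ array (green, filled) and on the titled −/− array (purple, open). A grey line joins the values of a gene, and no error bars are drawn since each array gives 1 value. The dashed lines mark the bounds of the level ranges at 5.06 and 7.68, *Etv4* and *Spry4* have the longest lines, and the green points of *Fgf5* and *Fgf8* lie hidden at 0.

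Among the feedback genes, the Sproutys, *Dusp6* and the Pea3 factors were higher on the titled −/− array by their strongest probe sets, and the Spreds lay near 0. *Dusp6*, the phosphatase that removes phosphate from ERK in the cytoplasm, was at 8.05 on the titled +/+ array and 8.29 on the titled −/− array, a difference of 0.22 or 1.16-fold. *Spry2*, of which loss in mice alters the pillar cells, was at 7.85 and 8.07, a difference of 0.20, and its weaker probe set at 4.95 and 4.81 differed by −0.16. *Spry1* was at 7.04 and 7.34, a difference of 0.27 or 1.21-fold. As descriptions, 17.2%, 22.8% and 18.1% of the probe sets of similar level differed by at least these sizes. *Spry4* was at 0.10 and 2.73, and its second probe set was listed at 0 on both arrays. The level of 0.10 is not told apart from background, so the difference of 2.61, reached by 4.2% of probe sets of similar level, has no certain size. Both levels lie under 4.11, the 25th percentile, and with levels set to at least 4.11 the difference was 0.

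*Spred1* and *Spred2*, inhibitors of the step from RAS to RAF, differed by −0.046 and −0.011 at levels of 8.76 and 8.74 and of 8.83 and 8.84. The weaker probe sets of *Spred1* differed by 0.039 and −0.21 and that of *Spred2* by −0.031. *Il17rd*, which encodes the inhibitor SEF, was lower on the titled −/− array, at 4.92 on the titled +/+ array and 4.19 on the titled −/− array, a difference of −0.76 in the low range. Of the 1000 probe sets nearest in level, 29.2% differed at least as much.

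*Etv4* had the largest difference of all the FGF genes above 0 on both arrays. This Pea3 factor, a transcriptional target of FGF receptors, was at 1.91 on the titled +/+ array and 5.12 on the titled −/− array, a difference of 3.19 from a single probe set, and 0.8% of probe sets of similar level differed as much. The lower of its levels lies deep in the range near background, so the size of the fold is uncertain. When levels under 4.11, the 25th percentile, were set to 4.11, the difference of *Etv4* was 1.01 and no other FGF gene was past 1. Its relative *Etv5* was at 5.74 and 5.87, a difference of 0.11, and at 5.67 and 5.56 for its second probe set, a difference of −0.13.

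Immediate-early genes, which also respond to ERK, were mostly lower on the titled −/− array. Of 13 such genes above 0 on both arrays, 11 were lower on the titled −/− array, with a median of −0.54. The 2 higher ones, *Egr3* and *Atf3*, differed by 1.25 and 0.88. *Fos* was at 9.09 and 7.73, a difference of −1.38, *Egr1* at 9.58 and 8.53, a difference of −1.07, and *Nr4a1* and *Jun* differed by −0.87 and −0.22. Of the 9 feedback and Pea3 genes 6 were higher and 3 lower, with a median of 0.20, where 51.3% of all genes were higher. *Spry4*, among the 6, had both levels under 4.11, and the second probe sets of *Spry2* and *Etv5* were lower. Of 9 other feedback genes of ERK, 3 were higher and 6 lower, with a median of −0.044. The difference between these groups of genes was not tested.

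**Figure D2:**
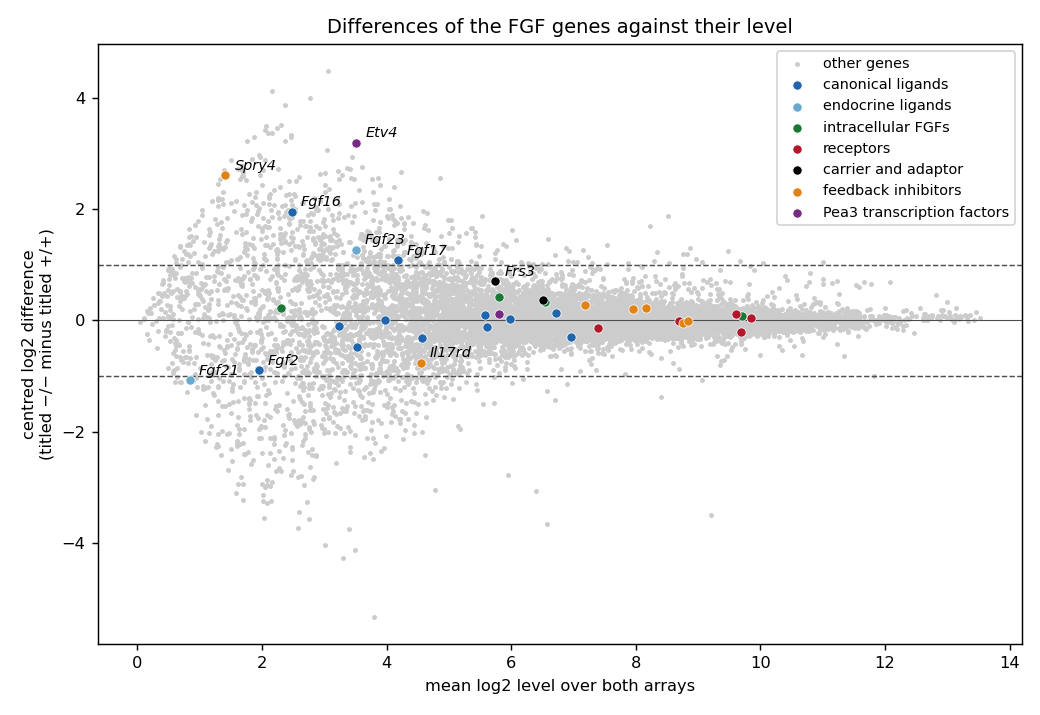
Centred log2 difference (y axis, titled −/− minus titled +/+) against the mean log2 level (x axis) of genes above 0 on both arrays, with other genes in grey, FGF genes coloured by role and dashed lines at 1 and −1. The grey cloud is widest at low levels, where all 6 FGF genes past the dashed lines lie, and the FGF genes above 7.68 lie between −0.20 and 0.22.

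The ligands were mostly read at low levels, with 14 of the 22 *Fgf* genes in the low range and 1, *Fgf13*, in the high range. *Fgf8* and *Fgf5*, the latter known from the hair growth cycle, were listed at 0 on both arrays. *Fgf20* was listed at 0 on the titled +/+ array and was at 0.78 on the titled −/− array. *Fgf15*, the mouse counterpart of the human bile acid hormone FGF19 and also a signal of the embryonic nervous system, was listed at 0 and was at 0.94, in the same order. No fold can be given for these 4 genes, and a level below 1 is not told apart from background.

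Canonical ligands in the middle range lay close together on both arrays, with *Fgf1* the farthest apart. *Fgf1*, a ligand of all receptor forms, was at 7.10 on the titled +/+ array and 6.82 on the titled −/− array, a difference of −0.30. Its second probe set, at 6.04 and 5.62, differed by −0.44 in the same direction, and 21.3% of probe sets of similar level differed as much as the stronger one. *Fgf18*, a regulator of cartilage and bone growth, was at 6.65 and 6.79, a difference of 0.13. *Fgf9* was at 5.52 and 5.64, a difference of 0.093, *Fgf7*, the keratinocyte growth factor made by mesenchyme, at 5.96 and 6.01, a difference of 0.019, and *Fgf4* at 5.66 and 5.57, a difference of −0.11. Of the other 3 probe sets of *Fgf4*, 1 differed by −0.91 and 2 were listed at 0 on the titled +/+ array. Apart from *Fgf1*, these ligands of the middle range differed by less than the SD of 0.27 between probe sets of such levels.

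Cartilage markers, among which *Fgf18* and *Fgfr3* may be read, had a median difference of 0.0059, with 7 of 12 higher. *Col2a1*, *Col9a1* and *Cnmd*, the cartilage genes of highest level, differed by 0.015, 0.0048 and 0.0069. The growth plate genes *Ihh* and *Col10a1* differed more, by −0.91 and 0.80, sizes reached by 0.4% and 0.5% of probe sets of similar level. Of 7 otic mesenchyme markers, the tissue that receives *Fgf9* signals, all 7 were lower on the titled −/− array, with a median of −0.22, and *Pou3f4* and *Tbx18* differed by −0.64 and −0.67. Of 16 markers of supporting and other cochlear epithelial cells 11 were lower, with *Gjb2*, *Tecta* and *Fabp7* at −0.80, −0.52 and 0.30. Hair cell markers had a median of −0.11, with *Calb1*, *Myo6* and *Myo7a* at −0.39, −0.18 and 0.0076. Their part in the FGF values was not tested.

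Below 5.06 the ligands scattered widely in both directions. *Fgf16* was at 1.49 on the titled +/+ array and 3.47 on the titled −/− array, a difference of 1.96. *Fgf17*, a ligand of the midbrain and hindbrain border, was at 3.63 and 4.73, a difference of 1.08, and *Fgf23*, the phosphate hormone of bone, was at 2.86 and 4.16, a difference of 1.27. *Fgf21*, a hormone of liver metabolism, was at 1.37 and 0.32, a difference of −1.07 whose lower level is not told apart from background. These 4 were past 1 log2 unit, and 19.8%, 20.8%, 23.3% and 35.2% of probe sets of similar level reached their size. With levels set to at least 4.11 the differences of *Fgf16* and *Fgf21* were 0, and those of *Fgf17* and *Fgf23* were 0.62 and 0.048. *Fgf2* was at 2.39 and 1.52, a difference of −0.90, and *Fgf22*, which acts at synapses, at 3.75 and 3.29, a difference of −0.48. The otic inducers *Fgf3* and *Fgf10* were at 4.72 and 4.42 and at 3.28 and 3.21, differences of −0.32 and −0.099, and the muscle ligand *Fgf6* was at 3.95 and 3.99, a difference of 0.014. The second probe sets of *Fgf3* and *Fgf17* were listed at 0 on the titled +/+ array and were at 2.04 and 1.46 on the titled −/− array, and that of *Fgf22* was listed at 0 on both. All of these values lie where probe sets of the same gene differed with an SD of 1.16. Of the FGF genes, *Fgf3*, *Fgf4* and *Fgf15* follow each other on chromosome 7 and *Fgf6* and *Fgf23* on chromosome 6, with 0 protein-coding genes between them in the RefSeq table.

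The intracellular FGFs, which bind voltage-gated sodium channels in neurons, were all 4 higher on the titled −/− array for their strongest probe sets. *Fgf12* was at 5.58 and 6.02, a difference of 0.43, a size reached by 25.9% of probe sets of similar level. *Fgf11* was at 6.38 and 6.72, a difference of 0.33, and its second probe set was at 2.57 on the titled +/+ array and listed at 0 on the titled −/− array. *Fgf13* was at 9.65 and 9.75, a difference of 0.072, while its weaker probe set, at 3.48 and 2.77, differed by −0.73. *Fgf14* was at 2.19 and 2.43, a difference of 0.22, and its weaker probe set at 1.36 and 1.12 differed by −0.27. For none of these 4 genes did a second probe set share the direction of the first, since *Fgf12* had only 1. Of 14 neuron markers 8 were higher on the titled −/− array, with a median of 0.32, and *Stmn2*, *Nefl* and *Nefm* differed by 0.45, −0.18 and −0.18. Of 10 markers of hindbrain and central glia above 0 on both arrays all 10 were higher, with a median of 0.40, and *Zic1* differed by 0.98. The part of these neural cells in the values of *Fgf11* to *Fgf14* and *Fgf17* was not tested.

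**Figure D3:**
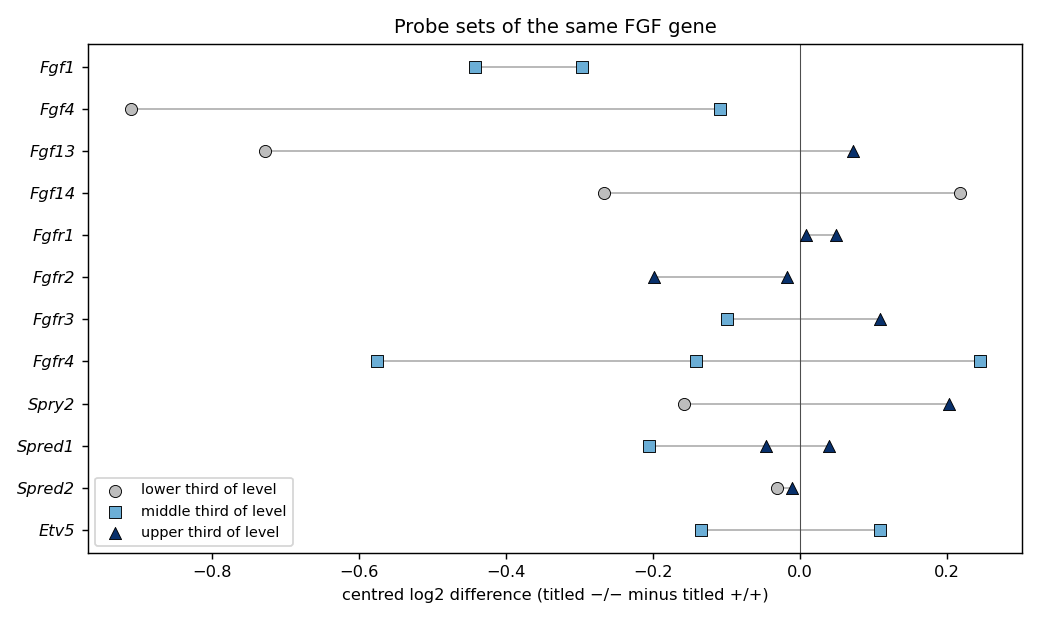
Centred log2 difference (x axis, titled −/− minus titled +/+) of each probe set above 0 on both arrays, for the 12 FGF genes with at least 2 such probe sets (y axis), with the symbol giving the level range (low circle, middle square, high triangle). The low-range point of *Fgfr4* at 0.24 lies hidden under the square at 0.24. The probe sets of *Fgfr1*, *Fgfr2*, *Fgf1*, *Fgf4* and *Spred2* lie on one side of 0 and those of the other 7 genes on both sides.

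The ligand carrier and the adaptor were both higher on the titled −/− array. *Frs3*, which links FGF receptors to GRB2, was at 5.38 and 6.11, a difference of 0.70 or 1.63-fold, the largest in the middle range, and 8.4% of probe sets of similar level differed as much. *Fgfbp1*, a secreted protein that frees FGFs from heparan sulphate, was at 6.31 and 6.71, a difference of 0.37, a size reached by 18.1% of probe sets of similar level. Each was read by 1 probe set.

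Over all 34 FGF genes above 0 on both arrays, the median difference was 0.083, beside 0.0055 over all 11705 such genes. Of the 34, 21 were higher on the titled −/− array and 13 lower, and 51.3% of all genes were higher. *Etv4*, *Spry4*, *Fgf16*, *Fgf23* and *Fgf17*, 5 genes, were above 1, where 4.78% of all genes were, and *Fgf21*, 1 gene, was below −1, where 3.73% were. All 6 are in the low range. In that range 6 of 13 FGF genes were past 1 in either direction, and 32.6% of all genes there were. In the middle range 0 of 12 FGF genes passed, beside 1.62% of all genes, and in the high range 0 of 9, beside 0.383%. In 5 of 12 FGF genes with several probe sets above 0, the probe sets shared 1 direction, and in 7 they did not. The share over all genes was not computed, so this count has no background, and several of these differences lie near 0.

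**Figure D4:**
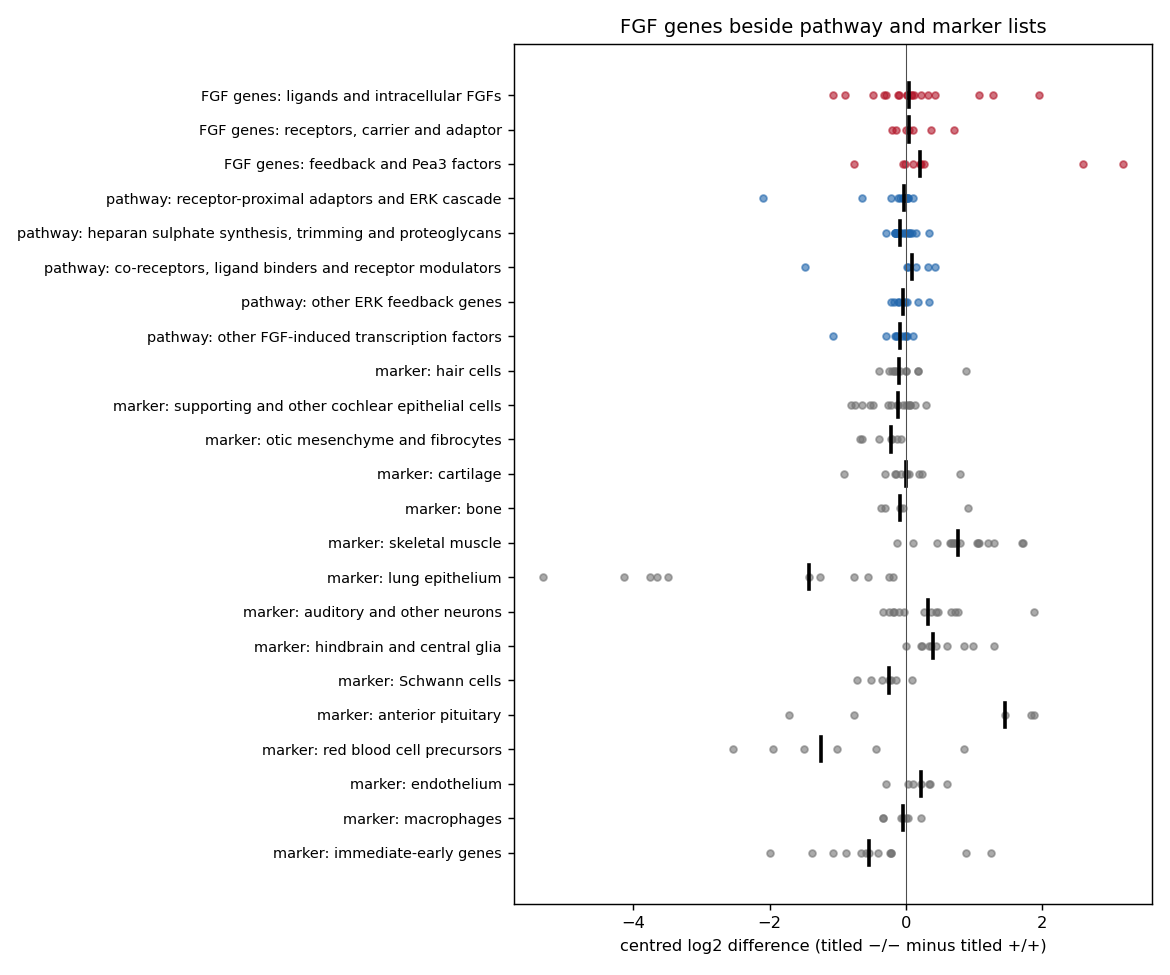
Centred log2 difference (x axis, titled −/− minus titled +/+) of single genes (points) in the FGF groups (red), other genes of the pathway (blue) and marker lists of cell types or states (grey), with the black bar at the median of each list. The median is 0.046 for the ligands and intracellular FGFs and 0.20 for the feedback and Pea3 genes, with *Etv4* and *Spry4* far to the right. Lung epithelium lies to the left and skeletal muscle to the right.

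The rest of the pathway was represented by 5 lists of genes chosen by function. Of 81 such genes listed, 59 were measured, 58 of them above 0 on both arrays. Of the 58, 0 were above 1 and 3, *Sos1*, *Kl* and *Egr1*, below −1, beside 4.78% and 3.73% of all genes. *Sos1* and *Kl* are in the low range, where 32.6% of all genes were past 1 in either direction. The median of the 58 was −0.035, with 21 higher and 37 lower on the titled −/− array. In the cascade from receptor to ERK, the docking protein *Gab1*, the phosphatase *Ptpn11* and the kinase *Rps6ka3* differed by −0.035, 0.0088 and 0.027, at levels above 9. *Sos1*, which activates RAS, was at 3.23 and 1.16, in the low range, and its relative *Sos2* differed by −0.083 at levels above 8. Among 19 genes of heparan sulphate, on which FGF binding depends, 13 were lower and 6 higher, between −0.29 and 0.34, with the proteoglycan genes *Agrn* and *Gpc3* at −0.012 and 0.052 and the sulphatase *Sulf2* at −0.16. The endocrine co-receptors *Kl* and *Klb*, which bind *Fgf23* and *Fgf15* or *Fgf21*, were at 2.53 and 1.06 and at 3.22 and 3.67, all near background. The adhesion proteins *Ncam1* and *Cdh2*, which interact with FGF receptors, differed by 0.32 and 0.15. Among 9 other feedback genes of ERK, 3 were higher and 6 lower on the titled −/− array. *Phlda1*, *Rasa1* and *Errfi1* differed by −0.22, −0.11 and −0.044, and *Lrig1* and *Spsb1* by 0.34 and 0.18. The FGF-induced transcription factor genes *Ets2*, *Sox9* and the cyclin gene *Ccnd1* differed by −0.060, −0.15 and −0.12.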

How the data were processed

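The levels of 2 Affymetrix MOE430A arrays hybridised with biotin-labelled cochlear cRNA were used, both from embryos of a C57BL/6J background. The authors deposited log2 levels per probe set, with the lowest values listed at exactly 0. Their methods name MAS5.0, RMA and the multi-mgMOS model of the PUMA package. No versions are stated. The sources used here do not give the method behind the deposited table, nor its scaling between arrays. The base of 2 was read from the size of the largest values. MAS5.0, RMA and multi-mgMOS treat low signals differently, so low levels depend most on this choice.

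Each probe set was given the gene of the platform annotation, and symbols were updated by gene identifier in the RefSeq table of GRCm38.p6, where 20351 of 20380 probe sets with 1 symbol matched. The 64 control probe sets and the 691 with several symbols named no gene. A gene was read by its strongest probe set over both arrays. Differences (titled −/− minus titled +/+) were centred on their median over 22626 probe sets, 0.022, and none was formed where an array was listed at 0. With 1 array per title no test, error or p-value could be had. The differences between probe sets of the same gene, and the percentage of 1000 probe sets of similar level that differed by as much or more, are descriptions of these 2 arrays. Alternatives changed the centring, the normalization, the floor, the probe sets used and the size limit. The members, the pathway and marker lists and the rules were chosen with earlier results of these data known. All 38 members are named. From the lists, the rule named the 3 genes of the highest level in each and those past 1 log2 unit above the median level of genes, and only those beside a result are given. A few others were chosen after their values were seen. Scripts were tested on simulated data and ran in Python 3.11.15 on pandas 2.3.3, numpy 2.4.6, statsmodels 0.14.6 (lowess) and matplotlib 3.10.9.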

Additional observations from a re-analysis of the deposited data

How the results depend on the processing

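With 1 array per title nothing could be left out or tested, and 2 arrays bound what can be said. No paired analysis was possible because each title has a single array and no test was made. The genotype behind each direction is not settled by the labels. The counts of FGF genes above 1 and below −1, 5 and 1, were the same without centring, after quantile normalization, after lowess on the level, with the probe sets of a gene averaged, without probe sets ending in _x_at or _s_at and with genes listed at 0 kept. A floor at the 25th percentile, which by construction shrinks differences between low levels, gave 1 and 0. With that floor 0.90% of all genes were above 1 and 0.46% below −1. Above the median level of all genes, 7.10, they were 0 and 0, since all 6 genes lie below it. A limit of 2 gave 2 and 0 and a limit of 0.5 gave 6 and 3. The share of all genes past these 2 limits was not computed, so these counts have no background. The median over the FGF genes, 0.083, was between 0.0052 and 0.10 under these settings and stayed above 0. Of 34 FGF genes, 27 took no opposite sign under the 7 settings that give a difference. The sign of *Etv5*, *Fgf13*, *Fgf14*, *Fgf6*, *Fgf7*, *Fgfrl1* and *Spred2* turned under at least 1 of them. Averaging the probe sets of a gene turned *Etv5*, *Fgf13* and *Fgf14*. Leaving out the centring turned *Fgfrl1* and *Spred2*, and quantile normalization turned *Fgf6* and *Fgf7*.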
